A study of Oryza sativa with 60 samples.

Results

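The miRNA families miR156, miR529 and miR535 were followed in anthers of rice. They were taken from tables of reads per mature miRNA as the entries whose name begins with osa-miR156, osa-miR529 or osa-miR535 and goes on with a non-digit. This gave 10 of 582 entries: 6 of miR156, 2 of miR529 and 2 of miR535. The anthers came from wild-type plants of Kitaake, a japonica cultivar, grown in a greenhouse, and each sample was total RNA of pooled anthers, per the labels. The 30 small RNA libraries fall into 10 groups of 3 biological replicates by anther length, with no treatment and no second genotype.

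In plants, miR156 directs the cleavage and translational block of transcripts of SPL (SQUAMOSA promoter binding protein-like) transcription factors, which control the change from juvenile to adult growth, branching and the form of the inflorescence. miR529 and miR535 are related to miR156 in sequence and also recognise SPL transcripts. In miR156 the guide strand, which is loaded into Argonaute, comes from the 5p arm of the hairpin, and the 3p arm gives the passenger strand, which is mostly degraded. The transcripts of SPL genes were not analysed here.

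The length in the title of each small RNA library differs from that in the name of its count table, and the labels do not say which is right. Lengths in the text are those of the table names, in which bare 4, 6 and 8 were read as 0.4, 0.6 and 0.8 mm. Groups named 0.4, 0.6 and 0.8 mm carry the titles 1.8, 2.0 and 2.5 mm. Groups named 1.0, 1.2, 1.4, 1.6, 1.8, 2.0 and 2.5 mm carry the titles 0.4, 0.6, 0.8, 1.0, 1.2, 1.4 and 1.6 mm. The 10 groups are the same either way, so levels and the test over all sizes do not depend on the choice, while the order of the groups does.

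Levels are CPM, the reads of an entry per 1000000 miRNA reads of its library. Total miRNA reads ranged from 7527 (0.8 mm replicate 1) to 584897 (2.0 mm replicate 2), and a floor of 3 reads corresponds to 399 and 5.13 CPM in these libraries. In 3 libraries the miRNA reads were few or dominated by 1 entry: miR1856 held 66.0% of 2.0 mm replicate 2, miR168a-5p held 65.8% of 1.6 mm replicate 3, and 0.8 mm replicate 1 was the shallowest. The 3 libraries of 1.6 mm and 1.0 mm replicate 3 have count tables whose names give another miRNA reference. The families miR2118 and miR2275, which trigger phased small RNAs of reproductive tissue and mark anthers, were present in every library (451 to 71106 and 1383 to 115832 CPM, summed over their entries).

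miR156adei, the most abundant of the 10 entries, had a far lower group mean in each of the 3 shortest groups than in any other. Its name joins several miR156 loci and ends in a comma in the tables, so it may stand for more loci than its letters show. In anthers of 0.4 mm its level was 1365, 4060 and 2394 CPM in replicates 1, 2 and 3. At 0.6 mm it was 3483, 4746 and 3990 CPM, and at 0.8 mm 3986, 3951 and 6707 CPM. The 3 groups overlapped, and none of their libraries exceeded 6707 CPM.

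At 1.0 mm the replicates of miR156adei had 14630, 24165 and 19617 CPM, and the lowest of these was above the highest library of the shorter anthers. At 1.2 mm it had 25430, 26833 and 27860 CPM, and at 1.4 mm 28185, 29821 and 20398 CPM. The replicates of 1.2 mm lay close together, and those of 1.4 mm spread around them.

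In the longer anthers the libraries of 1.6 and 2.0 mm lay far apart within their groups, and those of 2.5 mm close together. At 1.6 mm miR156adei had 51786, 45683 and 15090 CPM, and at 1.8 mm 21164, 28428 and 36950 CPM. At 2.0 mm it had 27920, 5979 and 68079 CPM, and at 2.5 mm 63449, 64799 and 57562 CPM. The low values at 1.6 and 2.0 mm are the libraries dominated by miR168a-5p and miR1856. With the reads of both these entries left out of the totals, they had 47220 and 33700 CPM, beside 63259 and 52652 in the other libraries of 1.6 mm and 48923 and 80583 in those of 2.0 mm.

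**Figure D1:**
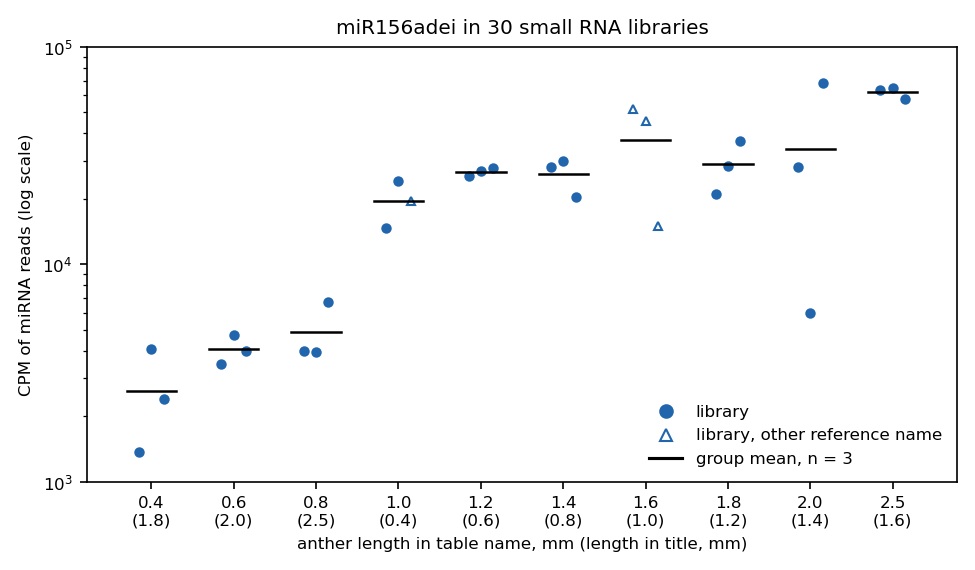
Level of miR156adei in 30 small RNA libraries (y axis: CPM of miRNA reads, log scale) by anther length in the name of the count table, with the length in the title in brackets. Points are libraries, open triangles those counted against the other reference name, and bars group means of 3 libraries: all 9 libraries of 0.4 to 0.8 mm lie at or below 6707 CPM, and those of 2.5 mm at 57562 or above.

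By group mean the order of miR156adei was 0.4 mm (2606 ± 1360 CPM, SD, n = 3), 0.6 mm (4073 ± 636), 0.8 mm (4881 ± 1581), 1.0 mm (19470 ± 4769), 1.4 mm (26135 ± 5035), 1.2 mm (26708 ± 1220), 1.8 mm (28847 ± 7901), 2.0 mm (33993 ± 31492), 1.6 mm (37520 ± 19663) and 2.5 mm (61937 ± 3848). Neighbours in this order overlapped except at 2 places, between 0.8 and 1.0 mm and between 1.6 and 2.5 mm. One library of 2.0 mm also exceeded the highest of 2.5 mm. Another, 2.0 mm replicate 2, dominated by miR1856, lay at 5979 CPM, below the 6707 CPM of 0.8 mm replicate 3. Fewer cells that express a miRNA and less of it per cell cannot be told apart in such bulk samples.

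The sizes were then compared in edgeR's quasi-likelihood test with Benjamini-Hochberg adjustment over 371 entries that passed a filter on low counts, among them all 10 members. An entry was called at an adjusted p under 0.05, and in a comparison of sizes also at a log2 fold change of 1 or more in size. Over all 10 sizes 6 of the 10 members were called, beside 67.4% of all tested entries. These were miR156adei (adjusted p = 1.97e-06), miR156cgfhl-3p (5.01e-06), miR156l-5p (0.000841), miR156j-3p (0.00484), miR156k (0.0102) and miR529b (0.0287). The other 4 were miR535-5p (adjusted p = 0.0661), miR156b-3p (0.0719), miR535-3p (0.181) and miR529a (0.39).

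Comparing the middle sizes (1.0, 1.2 and 1.4 mm, 9 libraries) with the early ones (0.4, 0.6 and 0.8 mm, 9 libraries), 2 of 10 members were called, 1 higher and 1 lower, beside 28.0% of all tested entries (15.4% higher and 12.7% lower). miR156adei rose from a median of 3986 CPM (range 1365 to 6707) to 25430 (14630 to 29821), with a log2 fold change of 2.86 (SE 0.37, adjusted p = 3.03e-06 in edgeR). miR156l-5p fell, and its values are given below. The median log2 fold change was -0.257 over the members and 0.277 over all tested entries, so most members did not follow miR156adei. The share of called entries that were higher depended on the scaling, 54.8% here, 40% with library totals and 42.7% in DESeq2, and the median over all entries was 0.0937 and 0.0124 in the latter. On these scalings the log2 fold change of miR156adei was 2.68 and 2.59, and 2.62 without the 3 shallow or dominated libraries.

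Directions and calls between sizes depended on which length is right. In the order of the titles the 3 groups with low miR156adei are the longest anthers, and 2.5 mm by table name is 1.6 mm by title. Windows of the same limits in title length then gave a log2 fold change of miR156adei of 0.35 from early to middle sizes (adjusted p = 0.411 in edgeR) and a fall by 2.15 from middle to late sizes (adjusted p = 3.59e-06). Between the titles 0.4 and 2.5 mm it was -2.02 (adjusted p = 0.154). The titles move the 3 low groups from the start to the end of the series and keep the order of the other 7, so steps among those 7 keep their direction.

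From the middle to the late sizes (1.6, 1.8, 2.0 and 2.5 mm, 12 libraries) 2 of 10 members were called, both higher, beside 47.2% of all tested entries (27.2% higher and 19.9% lower). The called members were miR156cgfhl-3p and miR535-5p. For miR156adei, which had a median of 41316 CPM in the late sizes (5979 to 68079), the log2 fold change was 0.61 (SE 0.33, adjusted p = 0.117 in edgeR). Scaled to all reads of the table instead, in the 26 libraries that list reads assigned to no miRNA, it was 1.17 (adjusted p = 0.00669), where the median over all entries was 1.26 against 0.542 in the main scaling. The share of higher entries among those called was 75.8% on that scale, 68.8% without the reads of miR1856 and miR168a-5p, and 57.7% in the main scaling.

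Between the ends of the series, 2.5 against 0.4 mm, 5 of 10 members were called, 4 higher and 1 lower, beside 49.6% of all tested entries (29.9% higher and 19.7% lower). miR156adei had 23.8 times its mean CPM of 0.4 mm at 2.5 mm (edgeR's log2 fold change 4.57 with SE 0.69, adjusted p = 4.52e-06). The other higher members were miR156k, miR156cgfhl-3p and miR529b, and miR156l-5p was lower. The median log2 fold change was 1.09 over the members and 0.85 over all tested entries. Per 1000000 reads of any kind, miR156adei had 9.21, 35.7 and 22.3 reads at 0.4 mm and 887, 854 and 869 at 2.5 mm, so the libraries at the ends did not overlap on that scale either.

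**Figure D2:**
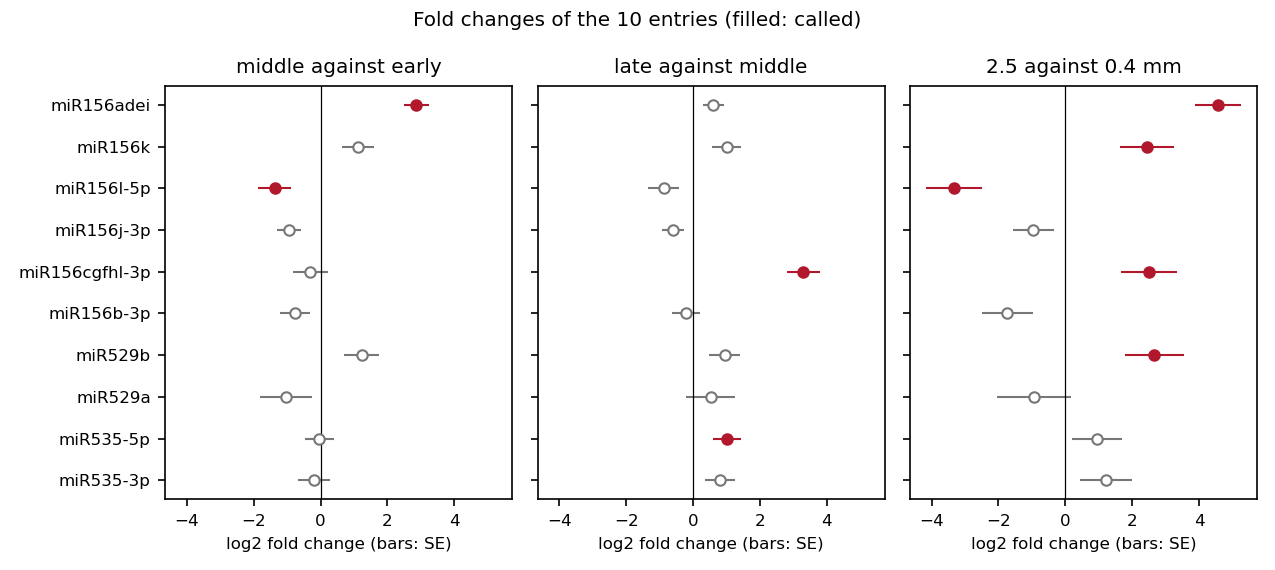
Log2 fold changes of the 10 entries in 3 comparisons of sizes (x axis, with bars of the SE derived from the edgeR test), with called entries filled. miR156adei is at 2.86 in the middle against the early sizes and at 4.57 in 2.5 against 0.4 mm, while miR156l-5p lies at the other side of 0, at -1.38 and -3.33.

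The other 5p entries of miR156, miR156k and miR156l-5p, come from single loci and moved in opposite directions. miR156k had 57.3, 48.3 and 46.0 CPM at 0.4 mm and 297, 274 and 256 CPM at 2.5 mm, with no overlap between these groups. Its log2 fold change was 2.46 (SE 0.81, adjusted p = 0.0124 in edgeR). In the middle sizes it ranged from 18.0 to 515 CPM, the highest being 1.0 mm replicate 3, whose table carries the other reference name. The comparisons of middle with early and late with middle sizes gave log2 fold changes of 1.12 (adjusted p = 0.0683) and 1.01 (adjusted p = 0.0506). The first reached a call in the same direction in 6 of 30 fits without 1 library and in 1 of 12 alternatives. The second did so in 5 of 30 and 3 of 12. The call between the end sizes was lost without 0.4 mm replicate 1 or replicate 2 (adjusted p = 0.052 and 0.0617).

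miR156l-5p had 198, 306 and 303 CPM at 0.4 mm and 36.6, 13.8 and 30.7 CPM at 2.5 mm. All 3 libraries of the shortest anthers were above the others, the next of which had 173 CPM, except that 0.8 mm replicate 1, with 1 read (133 CPM, Wilson 95% interval 23.5 to 752), cannot be placed. From 0.4 to 2.5 mm it fell by 3.33 on the log2 scale (SE 0.85, adjusted p = 0.00184 in edgeR). From the early to the middle sizes it fell by 1.38 (SE 0.49, adjusted p = 0.0339), from a median of 133 to 44.0 CPM. That call was lost in 11 of 30 fits that each left out 1 library, with log2 fold changes from -2.03 to -1.12 (adjusted p from 0.00729 to 0.103). The libraries without which it was lost were 0.4 mm replicate 3, all of 0.6 and 0.8 mm, replicate 1 of 1.2, 1.4 and 2.0 mm, together with 1.4 mm replicate 3. It was also lost without the 4 libraries of the other reference name (-1.31, adjusted p = 0.0528), with that name as a term (-1.19, adjusted p = 0.0661) and scaled to all reads (-1.09, adjusted p = 0.143). The entries miR156adei, miR156k and miR156l-5p belong to 1 family, and the labels do not tell how reads matching several of them were assigned, so their split is uncertain.

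Of the 3p entries of miR156, miR156cgfhl-3p was higher at 2.5 than at 0.4 mm, as miR156adei was, and the 2 others had negative log2 fold changes there that did not pass edgeR's test of all libraries. miR156j-3p, the most abundant of them, had 854, 1030 and 1296 CPM at 0.4 mm and 1969, 1361 and 1756 CPM at 0.6 mm. At 2.5 mm it had 923, 337 and 463 CPM. Its median was 1296 CPM in the early sizes (571 to 1969), 487 in the middle (252 to 1046) and 339 in the late ones (39.3 to 1215), so the ranges overlapped. The log2 fold change from early to middle sizes was -0.94 (SE 0.36, adjusted p = 0.0469 in edgeR), just short of the fold limit. It was called in 19 of 30 fits without 1 library, among them those without any single library of 1.0, 1.6 or 2.5 mm, and in DESeq2 (-1.20, adjusted p = 0.000587). In edgeR it was also called with library totals (-1.20, adjusted p = 0.0413) and without the 4 libraries of the other reference name (-1.10, adjusted p = 0.0242). The same held without the 3 shallow or dominated libraries (-1.09, adjusted p = 0.0227) and with no fold limit. In 7 of 12 alternatives it stayed uncalled. Between the end sizes the log2 fold change was -0.96 (adjusted p = 0.204), and miR156j-3p was called there in DESeq2 (-1.42, adjusted p = 0.0154) and in edgeR's fit of those sizes alone (-1.09, adjusted p = 0.0408).

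Within each library the reads of miR156adei could be set against those of miR156j-3p, a ratio that does not depend on the library total. The letters of miR156adei do not include j, so the ratio is not known to compare both arms of the same hairpin. The ratio was 1.60 to 6.92 in the 9 early libraries, 26.6 to 92.5 in the 9 middle ones and 23.4 to 192 in the 12 late ones. Its group mean went from 2.46 ± 1.29 (SD, n = 3) in anthers of 0.4 mm and 5.13 ± 2.16 in those of 0.8 mm to 39.9 ± 8.5 in those of 1.0 mm. The mean of 2.5 mm was 128 ± 61.8. The early libraries did not overlap the rest, and the middle and late ones did. The libraries dominated by miR168a-5p and miR1856 had ratios of 109 and 152, within the range of the other late libraries. Against all 3p entries of miR156 together, the ratio of miR156adei was 1.44 to 6.06 in the early libraries. It was 24.1 to 75.9 in the middle and 15.4 to 130 in the late ones.

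**Figure D3:**
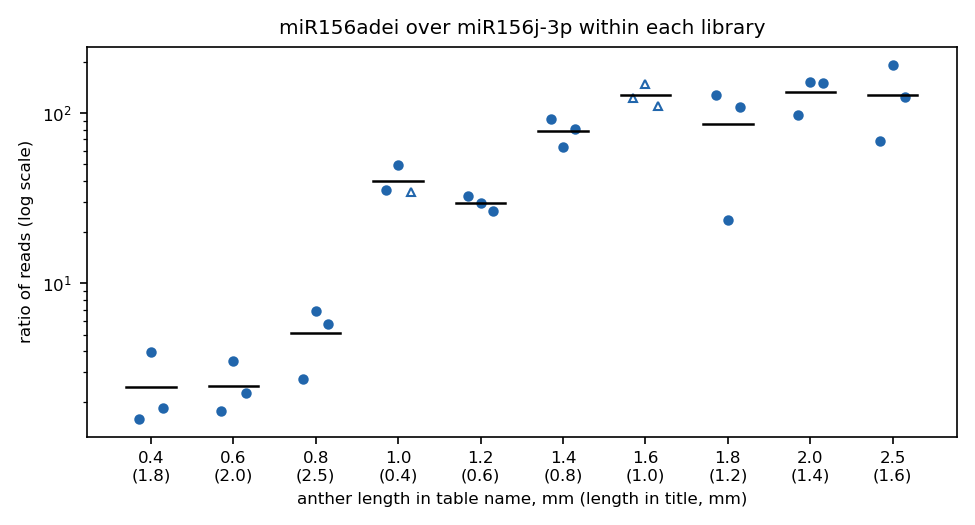
Ratio of the reads of miR156adei to those of miR156j-3p within each of 30 libraries (y axis, log scale) by anther length in the table name, title length in brackets. Points are libraries, open triangles the other reference name, bars group means of 3: the 9 early libraries lie between 1.60 and 6.92 and all others at 23.4 or above.

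miR156cgfhl-3p, a merged 3p entry of 5 loci by its letters, was low up to 1.4 mm and higher in the late sizes. It had 26.0, 37.5 and 36.8 CPM at 0.4 mm and 34.5, 29.1 and 28.7 CPM at 1.4 mm. At 1.6 mm it had 972, 1345 and 45.5 CPM, at 1.8 mm 278, 572 and 678 CPM, and at 2.5 mm 280, 127 and 184 CPM. Of the 12 late libraries, those dominated by miR168a-5p and miR1856 were the 2 lowest, at 45.5 and 35.9 CPM, and the other 10 lay at 127 CPM or above. These entries held 65.8% and 66.0% of the miRNA reads there, and the CPM of miR156cgfhl-3p was not recomputed without them. The libraries of the early and middle sizes lay at 74.4 CPM or below, apart from 0.8 mm replicate 1, whose 1 read (133 CPM, Wilson 95% interval 23.5 to 752) does not place it.

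From the middle to the late sizes miR156cgfhl-3p rose by a log2 fold change of 3.30 (SE 0.50, adjusted p = 2.93e-06 in edgeR). Without the 4 libraries of the other reference name, among them all of 1.6 mm, it was 3.01 (adjusted p = 3.23e-05). Between 0.4 and 2.5 mm it rose by 2.50 (SE 0.85, adjusted p = 0.0151), a call lost without 2.5 mm replicate 1, 0.4 mm replicate 1 or 0.4 mm replicate 2 (adjusted p = 0.0827, 0.0871 and 0.0644). Tests of the 9 steps between adjacent sizes, added after the values had been seen, called 1 member in 1 step. This was miR156cgfhl-3p from 1.4 to 1.6 mm (log2 fold change 4.24, SE 0.89, adjusted p = 0.0051), a step with 4.85% of all tested entries called, in which the reference name changes too and cannot be told apart from length. In the other 8 steps edgeR called 0 members, with 0.00%, 0.539% or 0.809% of all entries called. Of the 90 member tests over the 9 steps, 11 had an unadjusted p under 0.05 in edgeR. Per step these were 0 to 3 of the 10 members, beside 12 to 73 of all 371 tested entries. The lowest adjusted p of miR156adei was 0.154, from 0.8 to 1.0 mm.

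miR156b-3p was called in none of the 3 comparisons of windows and end sizes in edgeR's fit of all libraries. It had 67.7, 80.5 and 175 CPM at 0.4 mm and 48.8, 35.9 and 17.3 CPM at 2.5 mm, with a log2 fold change of -1.73 (SE 0.76, adjusted p = 0.058). DESeq2 called it in 2 of these, the middle against the early sizes (-1.09, adjusted p = 0.0395) and 2.5 against 0.4 mm (-2.18, adjusted p = 0.00665). In edgeR it was also called between the end sizes in the fit of those sizes alone (-1.90, adjusted p = 0.0141) and with the reference name as a term (-1.73, adjusted p = 0.0494). The same held without the 4 libraries of the other reference name (-1.77, adjusted p = 0.0433), without the 3 shallow or dominated libraries (-1.79, adjusted p = 0.0411) and without 1.0 mm replicate 3 (-1.78, adjusted p = 0.0479). By group mean miR156b-3p was highest at 1.6 mm (133 ± 101 CPM, SD, n = 3), above 0.4 mm (108 ± 58.4). The libraries of 1.6 mm had 133, 233 and 31.5 CPM, and all carry the other reference name. From 1.4 to 1.6 mm its log2 fold change was 2.09 (adjusted p = 0.104 in edgeR), which was not called.

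**Figure D4:**
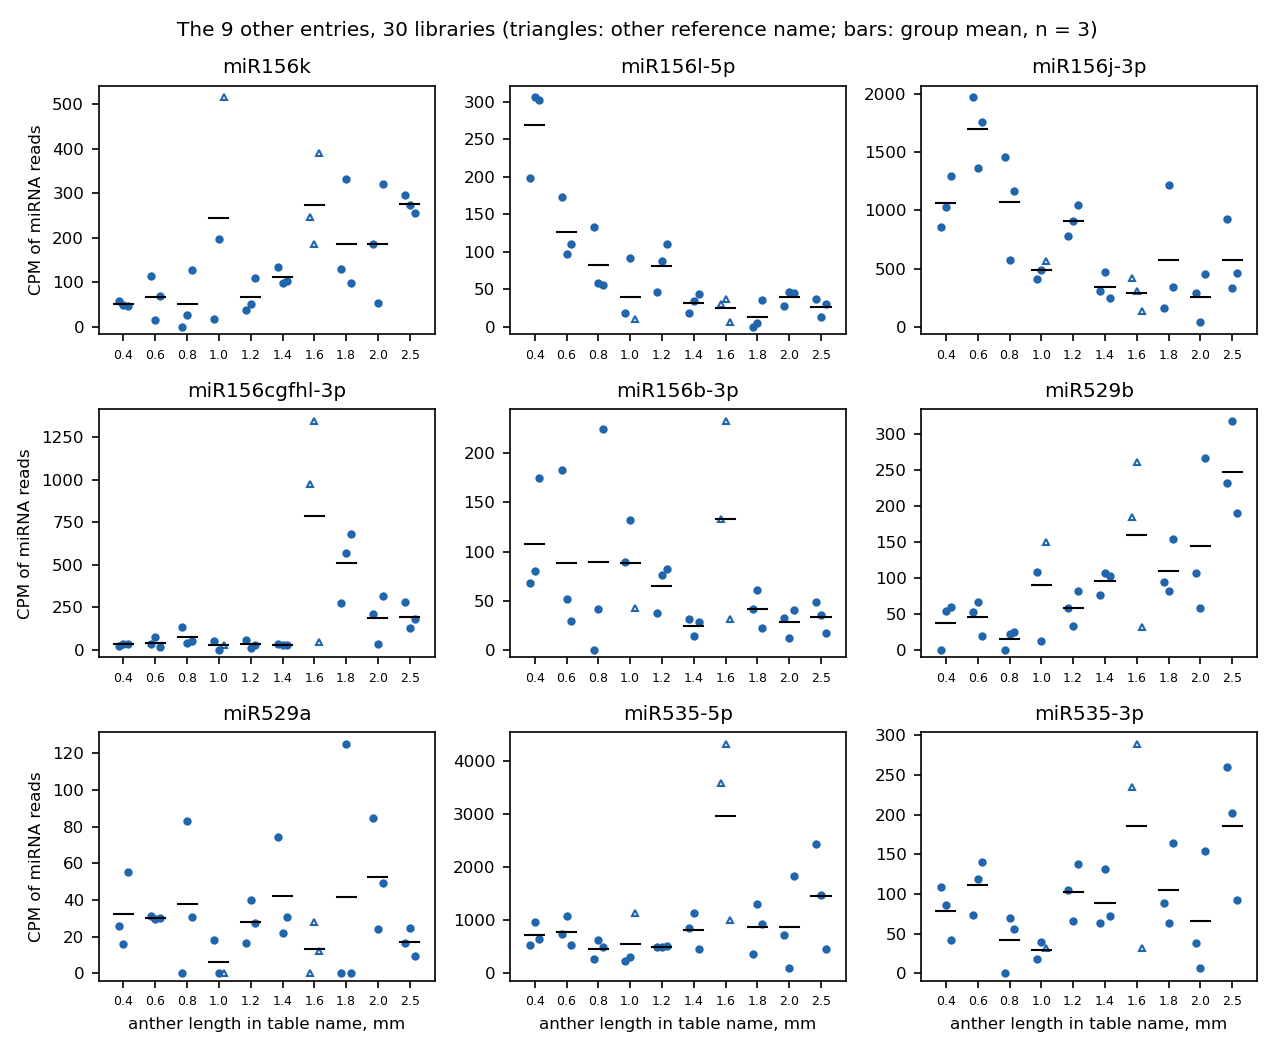
Levels of the 9 entries other than miR156adei (y axes: CPM of miRNA reads, linear, with a scale of its own in each panel) by anther length in the table name. Points are libraries, open triangles the other reference name, bars group means of 3: miR156l-5p is highest at 0.4 mm (198 to 306 CPM), miR156cgfhl-3p and miR535-5p at 1.6 mm (up to 1345 and 4333 CPM), and miR529b at 2.5 mm (190 to 318 CPM).

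Of miR529, the entry miR529b was the more abundant and was higher in the longest anthers. It had 0, 10 and 13 reads at 0.4 mm, or 0, 53.6 and 59.7 CPM, where a count of 0 allows up to 15.6 CPM. At 2.5 mm it had 57, 115 and 99 reads, or 232, 318 and 190 CPM, above all libraries of 0.4 mm. The log2 fold change was 2.66 (SE 0.88, adjusted p = 0.0125 in edgeR). The call was lost without 0.4 mm replicate 1 (1.99, adjusted p = 0.0769) or 2.5 mm replicate 2 (2.19, adjusted p = 0.066).

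By group mean miR529b was lowest at 0.8 mm (16.1 ± 14.0 CPM, SD, n = 3) and highest at 2.5 mm (247 ± 65.1). The 0.8 mm libraries had 0, 22.6 and 25.6 CPM, and the 0 is of the shallowest library, where it allows up to 399 CPM. Every neighbour in the order of groups overlapped the next. The log2 fold change of miR529b was 1.22 in the middle against the early sizes (adjusted p = 0.0729) and 0.95 in the late against the middle ones (adjusted p = 0.091). Scaled to all reads, the latter was 1.65 (adjusted p = 0.0119). The other entry, miR529a, ranged from 0 to 125 CPM over the 30 libraries. Its log2 fold change between 0.4 and 2.5 mm was -0.94 (SE 1.10, adjusted p = 0.501), and its replicates at 1.8 mm had 0, 125 and 0 CPM.

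Of miR535, miR535-5p had its highest group mean at 1.6 mm, with 3582, 4333 and 1007 CPM. Replicates 1 and 2 were above all other libraries. Replicate 3, in which miR168a-5p held 65.8% of the miRNA reads, was below several of them, among them 2.5 mm replicate 1 with 2447 CPM. Its level was not recomputed without the reads of miR168a-5p. At 0.4 mm miR535-5p had 526, 976 and 657 CPM, and at 2.5 mm 2447, 1481 and 455 CPM. These groups overlapped (edgeR's log2 fold change 0.94 with SE 0.76, adjusted p = 0.319). From a median of 495 CPM in the middle sizes (233 to 1143) it went to 1158 in the late ones (103 to 4333), with a log2 fold change of 1.01 (SE 0.42, adjusted p = 0.0453). That call was lost in 23 of 30 fits without 1 library (adjusted p up to 0.123), all but those without 0.8 mm replicate 2, 1.0 mm replicate 3, 1.4 mm replicate 2, 1.6 mm replicate 3, 1.8 mm replicate 1, 2.0 mm replicate 2 or 2.5 mm replicate 3. It was also lost without the 4 libraries of the other reference name (0.99, adjusted p = 0.0628), with that name as a term (0.86, adjusted p = 0.101), with no filter on low counts (1.05, adjusted p = 0.0847) and in DESeq2, where the fold was short of the limit (0.98, adjusted p = 0.0285). miR535-3p ranged from 0 to 289 CPM and was called in none of the 3 comparisons in the main scaling, with a log2 fold change of 1.23 between the end sizes (adjusted p = 0.2). Scaled to all reads it was called there (2.02, adjusted p = 0.033) and from middle to late sizes (1.17, adjusted p = 0.0457), the latter also without the reads of miR1856 and miR168a-5p (1.05, adjusted p = 0.0342).

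Together the 10 entries held 0.5% ± 0.173 of the miRNA reads at 0.4 mm, 2.1% ± 0.5 at 1.0 mm and 6.5% ± 0.493 at 2.5 mm (SD, n = 3). miR156adei made up 42.3% to 75.0% of these reads in the early libraries and 86.7% to 97.1% in the middle and late ones. By window mean miR156j-3p came next in the early sizes (1274 ± 433 CPM, SD, n = 9) and miR535-5p in the late ones (1546 ± 1311 CPM, SD, n = 12). Group means of log2(CPM + 1) over the 10 sizes correlated between miR156adei and miR529b at r = 0.882, miR156k at 0.795, miR535-5p at 0.36, miR156j-3p at -0.682 and miR156l-5p at -0.776. These are descriptions over 10 groups that share libraries and totals.

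The miR172 family, which targets transcripts of AP2-like transcription factors and acts downstream of SPL proteins in the change of growth phase in Arabidopsis, had 4 entries, of which 3 passed the filter. In the middle against the early sizes 2 of these 3 were called, both higher, beside 28.0% of all tested entries. The most abundant, miR172b, went from 92.7 ± 101 to 652 ± 450 CPM (SD, n = 9 each; edgeR's log2 fold change 3.11 with SE 0.51, adjusted p = 7.24e-05). From the middle to the late sizes 1 of 3 was called, beside 47.2% of all entries: miR172d-5p, lower (log2 fold change -1.26, SE 0.41, adjusted p = 0.014). Between 0.4 and 2.5 mm 2 of 3 were called, both higher, beside 49.6% of all entries, and miR172b changed by a log2 fold change of 3.98 (SE 0.92, adjusted p = 0.000781).

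The entries outside the 3 families whose group means over the 10 sizes were most like those of miR156adei were found among 197 entries with a mean of at least 100 CPM. They were miR396f-5p (Pearson's r = 0.957), miR172a (0.94) and miR812s (0.918), on the log2(CPM + 1) scale. miR396f-5p had a mean of 37.2 CPM at 0.4 mm and 1222 at 2.5 mm, and miR172a 20.9 and 585 CPM. For miR529b they were miR399d (0.945), miR2121ab (0.916) and miR1871 (0.914). For miR535-5p the likeness was lower, with miR5150-5p (0.778), miR5150-3p (0.728) and miR171a (0.714).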

How the data were processed

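Small RNA libraries were made with the RealSeq-AC kit from total RNA, per the labels' protocols. The tables deposited by the authors hold raw read counts per mature miRNA. The submitters' processing notes name cutadapt 3.0, FastQC 0.12, Bowtie2 2.5.2, HISAT2 2.1.1 and StringTie 2.1.4. The miRNA reference, the build, the mismatches allowed and the handling of reads that match several entries are not given in the sources used here. Each library has a pair of tables with equal miRNA counts. In 26 libraries an entry for unassigned reads is listed, which was left out of totals and tests. miRNA reads were 0.675% to 2.51% of all reads there. The mRNA tables of the series were not used here. No mature miRNA sequences were used.

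Counts were tested with edgeR 4.0.16 in R 4.3.3: filterByExpr, TMM, the quasi-likelihood test over all 30 libraries and 10 groups, and Benjamini-Hochberg adjustment. Calls needed an adjusted p under 0.05 and, between sizes, a log2 fold change of 1 or more in size. The SE of a log2 fold change was derived as its absolute value divided by the square root of the F statistic of its test. A count of 0 allows up to 3 reads, which covers counting error only, since reads carry no molecular identifiers. Replicates are biological, per the series' design text. No pair of replicates agreed within sampling noise (chi-square per degree of freedom 4.95 to 1856 over 30 pairs). Given in full are the most abundant entry of each family and members called in 1 of the 3 comparisons whose higher group reached 100 CPM. miR156j-3p, miR156b-3p, miR529a and miR535-3p are given beside them so that all members are accounted for. The members, windows and lists were chosen with earlier results of these data known. Alternatives were DESeq2 1.42.0, library totals, no filter, no fold limit, fits of the compared sizes alone, the reference name as a term or left out, a replicate block, sizes from the titles and leaving out each library. After seeing the data, 3 more were added: leaving out 3 shallow or dominated libraries, leaving out the reads of miR1856 and miR168a-5p, and scaling to all reads. The script was tested on simulated data with the same dispersion for all entries and no dominated library, so that test does not cover the dominated libraries here.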

Additional observations from a re-analysis of the deposited data

How the results depend on the processing

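The direction of miR156adei in the middle against the early sizes and in 2.5 against 0.4 mm, and its call, were kept in all alternatives but the title sizes (log2 fold changes 2.58 to 3.07 and 4.09 to 5.28, left-out libraries included), where the call was lost in both and the direction in the second. Counts of called members out of 10 moved by over 1.5 times as follows. In the middle against the early sizes (2) DESeq2 and the compared sizes alone gave 4, and the reference-name term, all reads and title sizes 1. In the late against the middle sizes (2) DESeq2, no filter and the reference-name term gave 1, leaving out the reads of miR1856 and miR168a-5p 5, all reads 6 and title sizes 6. Between 2.5 and 0.4 mm (5) no filter gave 3 and title sizes 0 (3 members had an unadjusted p under 0.05 in edgeR, and DESeq2 called 1). Leaving out 1 library gave 1 to 4, 1 to 3, 2 to 6 and, over all sizes, 5 to 7. The extremes came in the first comparison without 1.8 mm replicate 2 (4), 0.6 mm replicate 3 or 0.8 mm replicate 1 (1 each), in the third without 0.4 mm replicate 1 (2) or replicate 2 (3). In the second comparison 19 of 30 fits gave 1, and those without 1.0 mm replicate 3 or 2.0 mm replicate 2 gave 3. Calls among all tested entries moved too. In the second comparison 101 were higher and 74 lower of 371 in the main fit. Without the reads of miR1856 and miR168a-5p these were 141 and 64 of 391, and with all reads 197 and 63 of 440. In the first, 57 and 47 of 371 in the main fit became 50 and 67 in DESeq2, and 62 and 39 of 440 with all reads. Where no share of all entries is given, the counts are not a result about the members.

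Title sizes turned the sign of these log2 fold changes. Middle against early: miR156cgfhl-3p 3.54, miR529a 0.72, miR535-3p 0.59 and miR535-5p 0.94. Late against middle: miR156adei -2.15, miR156b-3p 0.46, miR156cgfhl-3p -2.66, miR156j-3p 1.52, miR156k -1.43, miR156l-5p 1.75, miR529b -1.19, miR535-3p -0.063 and miR535-5p -0.62. Ends: miR156adei -2.02, miR156b-3p 0.13, miR156j-3p 0.84, miR156k -1.86, miR156l-5p 0.86, miR529a 3.84 and miR529b -1.68. Other turns were of uncalled values: miR156b-3p late against middle (0.10 with the reference-name term, 0.08 in the compared sizes alone, 0.17 without the reads of miR1856 and miR168a-5p), miR535-5p middle against early (0.26 in the compared sizes alone, 0.048 with the block, 0.15 without those reads) and miR156j-3p late against middle (0.23 with all reads). Without 1 library, values turned between -0.78 and 0.070 for miR156cgfhl-3p, -0.55 and 0.049 for miR535-3p and -0.45 and 0.29 for miR535-5p (middle against early), and -1.06 and 1.63 for miR529a (late against middle). The cause was not tested. No filter ended the calls of miR156cgfhl-3p and miR156k between the ends (adjusted p = 0.0531 and 0.0621 in edgeR). Deviations from group means correlated at a median of 0.02 over 135 pairs of libraries with the same replicate number (lowest -0.615). Over 270 pairs with other numbers the median was -0.00827. Of 30 libraries, 15 correlated best with their own number, and whether the numbers pair the libraries was not tested further. The replicate block gave 2, 2, 5 and, over all sizes, 6 members called. At 7527 reads the shallowest library cannot show levels under 399 CPM.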
